A study of Homo sapiens with 4 samples.

Results

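The lapatinib-resistant clone of SkBr3 cells, SkBr3/Lap, was compared with the lapatinib-resistant clone of BT474 cells, BT474/Lap, to describe how these resistant states differed and which of the differences were absent between the parental lines. These are 2 of the 4 arrays of the series, with 1 array per group, and they were taken by their labels. SkBr3 and BT474 are HER2-positive human breast cancer cell lines, here as parental cells whose treatment is labelled vehicle, and all 4 cultures grew in DMEM/F12 medium. Each clone was selected from its line with rising concentrations of lapatinib up to 1 μM and is a single clone. The treatment of both clones is labelled lapatinib, so that properties of the clone, of resistance and of any drug present at harvest cannot be told apart. The labels number the SkBr3 clone 3 and the BT474 clone 6, whereas the study's text and the array files number them the other way. Of the 4 arrays, that of SkBr3/Lap came from a separate slide while the rest were on the same slide, so the difference between the clones cannot be told apart from the slide, while the parental difference lies within a slide. As there are no replicates, no difference below has a test.

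Lapatinib blocks the kinase activity of EGFR and HER2, the receptors that drive growth of HER2-amplified cells. Nuclear factor (NF)-κB is a family of transcription factors that is held in the cytoplasm by IκB proteins and induces cytokines, adhesion molecules and its own inhibitors when released. BT474 is an estrogen receptor-positive line, whereas SkBr3 lacks the receptor and is known for a deletion of CDH1, the gene of E-cadherin.

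Signals are the processed intensities of the scanner software, and each set of 4 signals below is in the order SkBr3, SkBr3/Lap, BT474 and BT474/Lap. A difference is on the log2 scale, after the 75th percentile of each array was subtracted, and is positive where SkBr3/Lap (or, between the parental arrays, SkBr3) was higher. The percentile was between 1115 and 2074 and highest on the SkBr3/Lap array, so that equal signals are not equal levels, and statements of which array was highest refer to the scaled values. Of the probes, the software marked 66.6% to 74.0% as well above background, and no spot was saturated. Repeated spots of a probe had a median SD of 0.06 to 0.07 on the log2 scale, which covers an array and not a culture. Probes with a signal of 100 or more on any of the 4 arrays were kept, which held for 25927 of 41000 probes, and 12159 named genes had a kept probe. For a signal that was not well above background, a fold is given as a limit against the lowest signal that was, 13.3 to 16.01 per array. Less RNA per cell and fewer cells with the RNA cannot be told apart in these bulk samples.

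The defining markers of both lines were found on the arrays. Keratin 19, an intermediate filament of luminal epithelium, had signals of 295035, 310875, 300114 and 276595. ERBB2, the gene of HER2, had 238524, 118706, 256346 and 237327, and ESR1, that of the estrogen receptor, had 11.1, 31.6, 1067 and 2851, of which the first was not well above background. CDH1 had 11.9, 4.66, 44709.9 and 56836, with neither SkBr3 array well above background. Thus the keratin was near the top of the range on all 4 arrays, and E-cadherin and the receptor separated BT474 and its clone from SkBr3 and its clone. Of 16 markers of blood cells, endothelium and fibroblasts, 8 were kept, of which 6 were at least 2-fold higher in SkBr3/Lap and 1 in BT474/Lap, against 24.2% and 23.6% of all 12159 named genes. Of the 6, CD3E, CDH5, COL3A1 and PECAM1 reached 100 on the SkBr3/Lap array only. Most genes kept in that way differ by the filter itself, as 407 of 507 such named genes were at least 2-fold higher in SkBr3/Lap, and 326 of 349 kept through BT474/Lap only were higher there. Without them, 22.5% of 11303 named genes were higher in each clone, and 2 of 4 markers were higher in SkBr3/Lap and 1 in BT474/Lap. PTPRC, HBB, COL1A2, LUM, DCN, POSTN and PDGFRB did not reach a signal of 100 on any array. The collagen gene COL3A1 had 4.10, 347, 4.07 and 3.82, with a signal well above background only in SkBr3/Lap, at least 19.2-fold above BT474/Lap. CDH5, the cadherin of endothelium, had 58.4, 915, 9.40 and 8.48, and PECAM1, another endothelial adhesion molecule, had 3.43, 160.1, 3.32 and 55.2. The part of these markers in the results below was not tested.

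The clones differed more than their parents did. Between them, 5914 kept probes were at least 2-fold higher in SkBr3/Lap (22.8%) and 6625 in BT474/Lap (25.6%), against 5048 probes in each direction between the parental arrays (19.5% and 19.5%). The SD of the differences was 2.31 between the clones and 1.90 between the parents. Of the 12539 differences between the clones, 6377 (50.9%) were also at least 2-fold in the same direction between the parents, 3328 (26.5%) were under 1.5-fold there and are called absent in the parental cells, and 2181 (17.4%) lay between these limits, of which 1126 were higher in SkBr3/Lap (4.34% of those kept) and 1055 in BT474/Lap (4.07%). The other 653 (5.21%) had the opposite direction in the parents. The absent differences were 1587 probes higher in SkBr3/Lap (6.12% of those kept) and 1741 higher in BT474/Lap (6.72%). In 187 of the 1587 and 65 of the 1741, neither parental signal was well above background. For these probes absent means that background signals were alike, not that equal levels were measured. Of the 2266 differences of at least 16-fold, 1773 were shared and 291 were absent. Counted as 1 probe per named gene, 791 of the 12159 genes (6.51%) had an absent difference higher in SkBr3/Lap and 653 (5.37%) one higher in BT474/Lap. Counts of absent differences in the gene lists below stand against these shares. Conversely, 1799 of the 10096 parental differences (17.8%) were under 1.5-fold between the clones. Over the kept probes, which share the arrays and are not independent, the clone and parental differences had a Pearson r of 0.67.

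Among the differences absent in the parental cells, 675 of the 1587 probes higher in SkBr3/Lap had moved at least 2-fold in SkBr3/Lap alone, 131 in BT474/Lap alone, 61 in both and 720 in neither. Of the 1741 higher in BT474/Lap, the numbers were 746, 254, 163 and 578. Each of these counts uses the same arrays as the difference itself and only describes it. The direction of the counts depended on the scaling. With the median of each array in place of the 75th percentile, the median clone difference of the kept probes moved from 0.02 to 0.43, and SkBr3/Lap held 62.5% of the clone differences (8460 against 5066 probes) in place of 47.2%, and 71.1% of the absent ones (2709 against 1100) in place of 47.7%. With the percentile taken over those probes that were well above background on each of the 4 arrays, the median moved to -0.18 and the shares were 39.5% (4958 against 7584) and 37.1% (1250 against 2115).

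**Figure D1:**
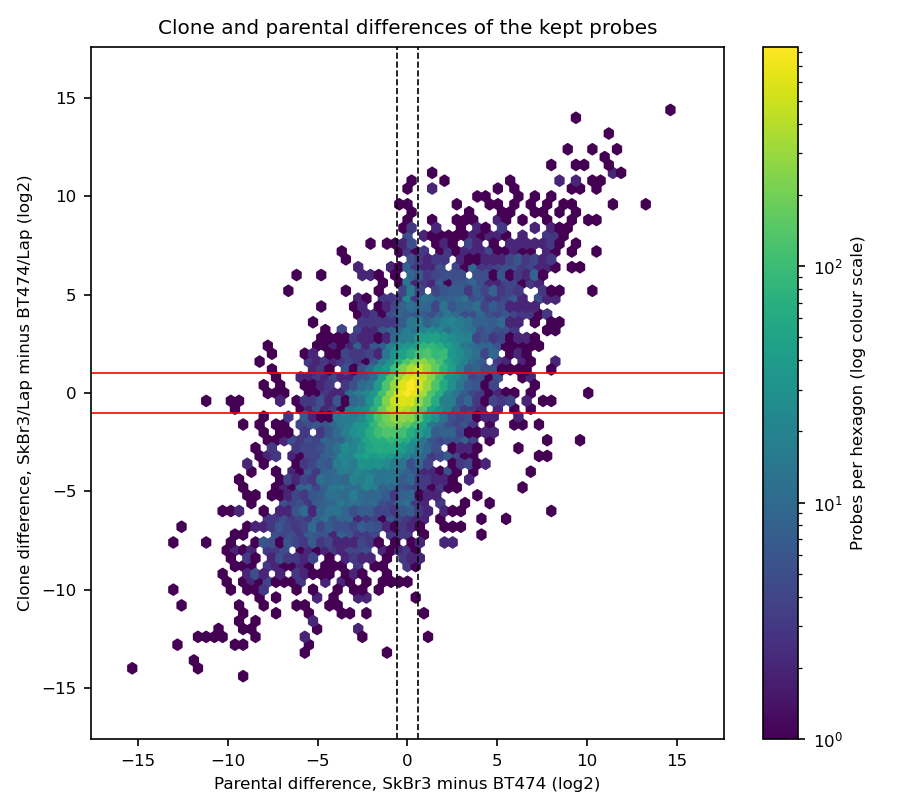
Log2 difference between the clones (vertical axis, SkBr3/Lap minus BT474/Lap) against that between the parental arrays (horizontal axis, SkBr3 minus BT474) for the 25927 kept probes, with the number of probes per hexagon as colour on a log scale. Red lines mark 2-fold between the clones and dashed lines 1.5-fold between the parents; the cloud runs along the rising diagonal, and the 3328 absent differences lie between the dashed lines, above or below the red ones.

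The 8 named genes with the largest differences absent in the parents and higher in SkBr3/Lap, outside the 19 gene lists described further on and among those well above background on all 4 arrays, included a Wnt ligand, a membrane repair protein and an interferon-induced GTPase. WNT10A, the ligand, had signals of 33.6, 14985, 30.4 and 91.2, a clone difference of 7.06 and a parental difference of 0.20. DYSF, dysferlin, which reseals muscle membranes, had 68.5, 17318, 63.3 and 109, a clone difference of 7.01. Only SkBr3/Lap was high for both. GBP1, a guanylate-binding protein induced by interferon, had 47.7, 1059, 48.8 and 19.0, with the lowest of the 4 signals in BT474/Lap and a clone difference of 5.497. Another probe of GBP1 gave a clone difference of 5.62 but a parental one of 3.85, so its absence in the parents depends on the probe. C5orf46 had 40.8, 923, 28.8 and 31.3 and a difference of 4.58. GFPT2 makes the first committed product of the hexosamine pathway. Its signals were 93.5, 2245, 74.6 and 76.4, a difference of 4.57. STAMBPL1, a deubiquitinase, had 46.6, 755, 33.6 and 27.1, and STX11, a SNARE protein of granule release, had 30.9, 877, 31.3 and 31.9, with differences of 4.50 and 4.48. In these 4 genes SkBr3/Lap stood above the other 3 arrays. SOX3, a transcription factor, was of another kind, as its signals of 9171, 16092, 7975 and 266 were high on 3 arrays and low in BT474/Lap. Its other kept probe had a clone difference of -6.29 and a parental difference of -7.49, so the probes of SOX3 disagree in direction and no direction is given for the gene.

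In 108 of the 12159 named genes, only the SkBr3/Lap array was well above background. These genes were picked by their signal on that array, so being higher there follows from the choice. The lowest signal so marked was 13.3 on the SkBr3/Lap array and 14.6 on that of BT474/Lap. Outside the lists, the highest was LEMD1, a gene otherwise expressed mainly in testis, with 10.7, 11574, 4.02 and 3.99, at least 641-fold above BT474/Lap. HSD3B1, an enzyme of steroid hormone synthesis, had 3.60, 9849, 3.59 and 6.30 (at least 545-fold), and SRGN, the granule proteoglycan serglycin, had 8.82, 5792, 3.37 and 3.17 (at least 321-fold). All 3 were at background on the other 3 arrays. TRIML2 had 7.499, 4356, 3.79 and 12.9 (at least 241-fold), EDNRB, an endothelin receptor, had 4.75, 2929, 4.85 and 4.24 (at least 162-fold), and DKK3, a secreted protein of the Dickkopf family, had 9.88, 2147, 5.76 and 16.003 (at least 109-fold).

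**Figure D2:**
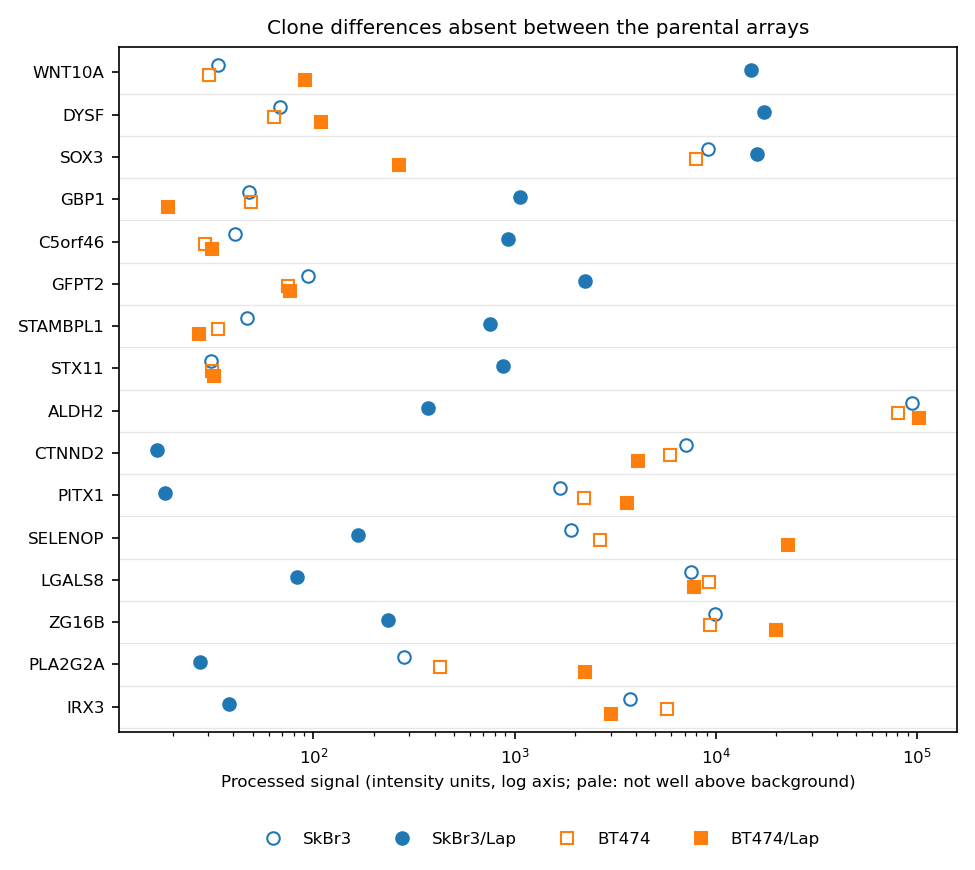
Processed signals (intensity units, log axis) on the 4 arrays of the 16 genes outside the lists, well above background on all arrays, with the largest clone differences absent in the parents, 8 higher in SkBr3/Lap (upper rows) and 8 higher in BT474/Lap (lower rows). Open symbols are parental arrays and filled symbols clones (circles SkBr3, squares BT474); the filled circle (SkBr3/Lap) is the rightmost symbol in the upper rows and the leftmost in the lower rows, and in SOX3 it lies with the parental symbols, apart from the filled square.

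By the same limits, all 8 genes with the largest absent differences higher in BT474/Lap were genes whose signal was lower in SkBr3/Lap than on the other 3 arrays. ALDH2, the mitochondrial aldehyde dehydrogenase that oxidizes acetaldehyde, had 94963, 369.8, 80922 and 102358, a clone difference of -8.42 and a parental difference of 0.29. CTNND2, δ-catenin, which binds cadherins, had 7143, 16.8, 5935 and 4103 and a difference of -8.24. PITX1 and IRX3 are homeobox transcription factors. PITX1 had 1683, 18.2, 2215 and 3606 and IRX3 had 3763, 38.2, 5725 and 3022, with clone differences of -7.93 and -6.61. LGALS8, the glycan-binding protein galectin-8, had 7533, 82.8, 9233 and 7826 and a difference of -6.86. For these 5 genes SkBr3, BT474 and BT474/Lap lay closer to each other than to SkBr3/Lap. Another probe of IRX3, well above background on all 4 arrays, differed by only -0.19 between the clones, so the probes of IRX3 disagree. SELENOP, the plasma carrier of selenium, had 1903, 166, 2666 and 22956, and PLA2G2A, a secreted phospholipase, had 281, 27.3, 425 and 2251. In both, BT474/Lap was above its parent and SkBr3/Lap below its own, with clone differences of -7.41 and -6.67. ZG16B, a secreted protein of glands, had 9967, 235, 9400.4 and 19939 and a difference of -6.71.

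Only the BT474/Lap array was well above background in 40 of the 12159 named genes, which were likewise picked by their signal on that array. SRRM4, a splicing regulator of neurons, had 3.21, 7.35, 9.14 and 2379, at least 221-fold above SkBr3/Lap. CYP4F22, a fatty acid hydroxylase of the skin, had 4.25, 9.05, 10.8 and 2124 (at least 197-fold), and ARPP21, a phosphoprotein of neurons, had 3.74, 2.95, 3.61 and 2080.1 (at least 193-fold). The 3 other arrays showed background only. PCDH9, a protocadherin, had 10.4, 4.05, 5.87 and 1147 (at least 106-fold), LGI1, a secreted neuronal protein, had 6.22, 3.09, 3.57 and 892 (at least 82.8-fold), and AGTR1, the angiotensin II receptor, had 4.31, 3.78, 4.41 and 827 (at least 76.8-fold).

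The gene lists and their members were chosen with earlier results of these data known, so the shares of a list only describe it. NF-κB target genes came next. Of 30 on the list, 17 were kept. Of these, 12 were at least 2-fold higher in SkBr3/Lap and 0 in BT474/Lap, against 24.2% and 23.6% of all named genes. Of the 12, CCL5, ICAM1, IL6, LTB and TNFAIP3 were kept through SkBr3/Lap only, and without them 7 of 12 were higher in SkBr3/Lap. Over the 17, which include these 5, the median clone difference was 2.99 (all named genes, 0.09) and the median parental difference 0.83, with 8 members higher in SkBr3 and 2 in BT474 (19.1% and 19.7% of all). Those not kept were CXCL8, CXCL1, CXCL2, CXCL3, CXCL6, CXCL10, CCL20, IL1A, IL1B, LIF, CSF2 and VCAM1, none of which reached 100 on any array, and NFKB2 had no named probe. Among the cytokines, IL6 had 5.93, 1695, 4.80 and 8.15 and was well above background in SkBr3/Lap only, at least 93.8-fold above BT474/Lap. TNF had 224, 2933, 10.2 and 15.8, at least 150.3-fold higher in SkBr3/Lap, but SkBr3 was above BT474 as well, and another probe differed by 2.74. CCL5, a T cell attracting chemokine, had 6.67, 4687, 31.2 and 57.7, a clone difference of 6.04, whereas SkBr3 was at background and BT474 above it. CCL2, a monocyte attracting chemokine, had 717, 2297, 11.6 and 72.1, already high in SkBr3. Thus IL6 and CCL5 separated the clones and not the parents in this direction, and TNF and CCL2 separated both.

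Of the adhesion molecules, ICAM1, which binds leukocyte integrins, had 46.8, 2781, 9.69 and 13.3, at least 154-fold higher in SkBr3/Lap. RELB, a subunit of NF-κB, had 6209, 46931, 1306 and 1570.2 and a clone difference of 4.60 against a parental one of 2.30. TNFAIP3, the deubiquitinase A20 that ends the signal, had 58.2, 1149.7, 7.29 and 14.1, at least 63.6-fold higher. NFKBIE, the inhibitor IκBε, had 3750.2, 16061, 2193 and 2525 and a difference of 2.37. All 4 were highest in SkBr3/Lap. Besides IL6, 2 members had clone differences absent in the parents. BIRC3, an inhibitor of apoptosis, had 68.5, 2396, 97.0 and 580.0, higher in both clones than in their parents and by 1.74 in SkBr3/Lap over BT474/Lap. IRF1, a transcription factor of the interferon response, had 301, 1142, 213 and 309 and a difference of 1.58. NFKBIA, the gene of IκBα, was also above its parent in both clones, with 28368, 112350.0, 25125 and 47972, and its clone difference of 0.92 stayed under 2-fold. TRAF1, an adaptor of TNF receptors, had the lowest difference of the list, -0.58, with 68.1, 266, 216 and 322. Another probe of TRAF1 had 3.55, 86.1, 52.5 and 158 and a clone difference of -1.18. The count of 0 members at least 2-fold higher in BT474/Lap thus depends on the probe.

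The promoters of the list were searched for the NF-κB consensus site (κB) on both strands of 300 bases from 250 before to 50 after the start (RefSeq, GRCh38.p14). Of the 17 kept members 13 had a promoter, and 8 of the 13 (61.5%) held a match, against 13.1% of the 9850 measured genes with a promoter and 10.8% of all 27305. The 8 were IL6, CXCL5, NFKBIA, TNFAIP3, BIRC3, BCL3, LTB and IRF1. The list was drawn up as NF-κB targets, so its share of matches may come from that choice and says nothing about the arrays. Among all measured genes with differences absent in the parents, 12.5% of 648 higher in SkBr3/Lap and 13.2% of 536 higher in BT474/Lap held a match, which is close to the share of all measured genes. The promoter of IL6 is shown because this gene was at background on 3 arrays and high on the fourth, and that of TAP1 because it faces PSMB9, another gene that was high in SkBr3/Lap. Both are the 250 bases before the start on the strand of the gene, chr7:22726950-22727199 (plus strand) and chr6:32853705-32853954 (minus strand), with the κB match in capitals.
IL6: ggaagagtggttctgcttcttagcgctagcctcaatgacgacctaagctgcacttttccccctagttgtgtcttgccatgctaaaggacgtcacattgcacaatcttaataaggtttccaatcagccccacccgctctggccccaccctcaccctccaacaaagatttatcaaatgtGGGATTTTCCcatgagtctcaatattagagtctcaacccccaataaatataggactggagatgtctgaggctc
TAP1: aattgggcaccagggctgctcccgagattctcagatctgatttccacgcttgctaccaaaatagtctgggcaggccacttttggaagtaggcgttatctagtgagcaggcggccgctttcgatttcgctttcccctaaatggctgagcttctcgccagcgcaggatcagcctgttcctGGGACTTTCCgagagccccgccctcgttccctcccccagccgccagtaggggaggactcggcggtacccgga

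Antigen presentation genes split by class. Class I molecules show peptides that the immunoproteasome cuts and the TAP transporter imports, and class II molecules, driven by the activator CIITA, show peptides of endosomes. Of 24 genes 21 were kept, of which 7 were higher in SkBr3/Lap and 10 in BT474/Lap, with a median difference of -0.74. These are 33.3% and 47.6%, against 24.2% and 23.6% of all named genes. Of the 7 and the 10, 2 and 4 were kept through that clone array only. Without them, 5 and 6 of 15 were higher (33.3% and 40.0%), against 22.5% of named genes in each clone. Between the parents, 5 were higher in SkBr3 and 8 in BT474. Of the class I machinery, TAP1 had 11202, 71288, 4466 and 6309 and a difference of 3.20, and TAP2, its partner, had 80.1, 322, 47.0 and 46.3 and 2.498. PSMB8 and PSMB9, subunits of the immunoproteasome, had 1922, 13420.0, 309 and 908 and 1640.3, 23237, 861 and 1758, with differences of 3.58 and 3.42. B2M, the light chain, had 27771, 105221, 8939 and 17515 and a difference of 2.28. All 5 were highest in SkBr3/Lap, and SkBr3 was above BT474 in all 5. NLRC5, the activator of class I genes, had 38.0, 286, 48.6 and 27.3, a clone difference of 3.08 that was absent in the parents (-0.30). CTSS, a protease of the endosome, had 116, 736, 7.95 and 18.5 and a difference of 5.01. Of the heavy chains, HLA-B had 4193, 12916, 15836 and 24264 and HLA-C had 4337, 17284, 37617 and 51209.9, both higher in BT474/Lap, with differences of -1.21 and -1.87. HLA-B fell under 2-fold when the arrays were scaled by their medians.

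The class II genes were higher in BT474/Lap, and the activator with them. CIITA had 4.19, 11.7, 59.7 and 696, at least 64.6-fold above SkBr3/Lap. HLA-DRA, the α chain of HLA-DR, had 3.80, 19.6, 3.92 and 1209 and a difference of -6.25, with neither parent above background. HLA-DMB, which helps load peptide, had 20.6, 28.1, 20.7 and 1183 and a difference of -5.70, again with neither parent above background. HLA-DMA, its partner, had 754, 353, 63.2 and 1500.3, so that SkBr3 was above BT474 and BT474/Lap above SkBr3/Lap. HLA-DRB5 and HLA-DRB1 had 6.46, 39.1, 254 and 5087 and 276, 444, 716 and 7642, with differences of -7.33 and -4.41. They are near-identical copies whose probes may share RNA, and their values are uncertain. HLA-DQB1 had 128, 214, 393 and 2437 and HLA-DPB1 had 13.3, 30.8, 32.7 and 207. BT474/Lap was the highest of the 4 arrays in all 8 of these genes. CD74, HLA-DPA1 and HLA-DQA1 did not reach a signal of 100 on any array.

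The 15 promoters found for this list were searched for a Y box, an interferon element, the κB site, an AP-1 site and an estrogen receptor element. The Y box of class II and class I promoters (GATTGG, both strands) was in 10 of the 15 (66.7%), against 20.1% of measured genes. These were all 6 class II genes with a promoter (HLA-DRB1, HLA-DRB5, HLA-DPB1, HLA-DQB1, HLA-DMA and HLA-DMB) with HLA-B, HLA-C, HLA-F and B2M. An interferon element (GAAANNGAAA, both strands) was in 5 (33.3%, against 2.57%), which were HLA-F, B2M, TAP1, TAP2 and TAPBP, and in none of those 6 class II genes nor in HLA-B, HLA-C, PSMB8 and PSMB9. The κB site was in 5 (33.3%, against 13.1%), which were HLA-B, HLA-C, B2M, TAP1 and TAPBP. An AP-1 site was in 1 (6.67%, against 4.60%) and an estrogen receptor element in 0 (against 0.03%). The Y box and the interferon element were picked for this kind of gene, so their shares may come from that choice. None of these shares says anything about the arrays. The 250 bases before the start of HLA-DMB, chr6:32941029-32941278 (minus strand, GRCh38.p14), are shown because this gene was not well above background in either parent and was high in BT474/Lap. Capitals mark a match to the letters GATTGG, read on the other strand. Whether this match is the Y box of the gene was not tested.
HLA-DMB: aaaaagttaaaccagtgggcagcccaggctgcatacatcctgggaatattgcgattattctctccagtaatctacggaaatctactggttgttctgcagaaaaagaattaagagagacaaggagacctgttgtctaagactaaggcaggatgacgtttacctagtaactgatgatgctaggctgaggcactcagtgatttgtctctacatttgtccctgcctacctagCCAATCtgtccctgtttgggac

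**Figure D3:**
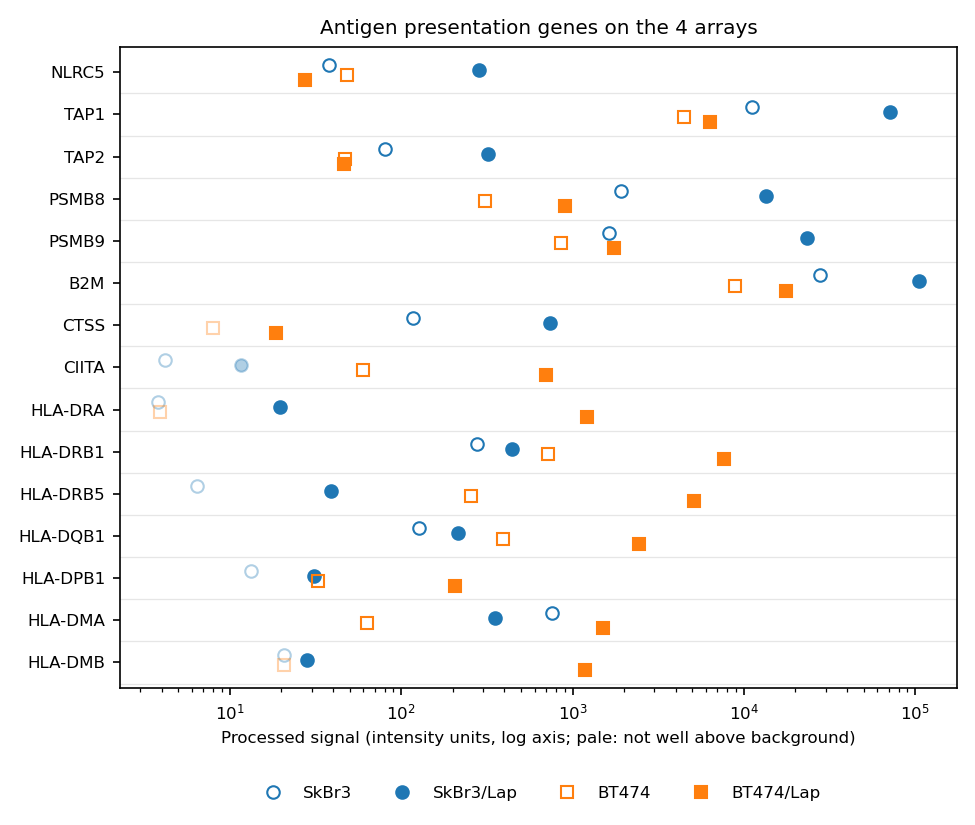
Processed signals (intensity units, log axis) of 15 antigen presentation genes on the 4 arrays, with class I machinery and CTSS in the upper 7 rows and CIITA and class II genes in the lower 8. Open symbols are parental arrays, filled symbols clones, and pale symbols signals not well above background; the filled circle (SkBr3/Lap) is farthest right in the upper rows and the filled square (BT474/Lap) in the lower rows.

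Interferon response genes were mixed in direction. Of 26, 20 were kept, 3 higher in SkBr3/Lap (15% against 24.2% of all named genes) and 8 in BT474/Lap (40.0% against 23.6%). Of the 8, 2 were kept through BT474/Lap only. Without these 2 and OAS1, kept through SkBr3/Lap only, 3 and 6 of 17 were higher (17.6% and 35.3%), against 22.5% of named genes in each clone. The median difference over the 20 was -0.49, which came to -0.08 with median scaling. Between the parents, 5 were higher in SkBr3 and 7 in BT474. IFITM1, a membrane protein that restricts viral entry, had 2071, 17372, 39.0 and 150.3 and a clone difference of 6.55, and MX2, a GTPase against viruses, had 34.4, 45.6, 2942 and 2425 and -6.04. Both differences were present in the parents (5.79 and -6.36). IRF7, the factor of type I interferon genes, was the member higher in SkBr3/Lap and alike in the parents, with 2775, 5647, 2767 and 1771 and a difference of 1.37. OASL had 50.3, 22.0, 49.4 and 103 and a difference of -2.53, also absent in the parents and under 2-fold after normexp and quantile normalization. The calls of HERC5, IFI44 and SAMD9 were lost after that normalization too.

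Estrogen response genes were lower in SkBr3/Lap in nearly every case. Of 24 genes 23 were kept, 0 were at least 2-fold higher in SkBr3/Lap and 21 in BT474/Lap (91.3% against 23.6% of all named genes). The median difference was -5.98. The parents had 0 and 17 with a median of -2.64, and 16 of the 21 differences were shared with the parents. PGR, the progesterone receptor, had 4.15, 3.16, 5955 and 15183 and GREB1, a cofactor of the estrogen receptor, had 3.54, 2.99, 5970.5 and 9108, with both SkBr3 arrays at background and folds of at least 1409 and 845 over SkBr3/Lap. Another probe of GREB1 had a smaller difference of -4.08. TFF3, a secreted trefoil peptide, had 5071, 75.6, 201458 and 211982 and a clone difference of -11.76, which was larger than the parental one of -5.26. The list member with the widest gap between its clone and parental differences was CA12, a carbonic anhydrase, which had 18276, 48.5, 12153 and 54682. There SkBr3 was above BT474 and SkBr3/Lap was far below BT474/Lap, a difference of -10.44. AGR2, a disulfide isomerase of secretory cells, had 23330.5, 507, 37191 and 37217 and a difference of -6.50 against -0.62 in the parents. STC2, a stanniocalcin, was above its parent in SkBr3/Lap with 3.997, 643, 22584 and 56624 and had a clone difference of -6.76. Absent in the parents were 3 differences. NAT1, an acetyltransferase, had 1041, 772, 1100.5 and 5485 and -3.13, XBP1, the factor of the unfolded protein response, had 176157, 51523, 221013 and 195683 and -2.23, and CCND1, cyclin D1, had 4117, 5100.5, 6015 and 9911 and -1.26. The call of CCND1 was lost with median scaling.

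Genes of apocrine and secretory breast cells were mostly lower in SkBr3/Lap. Of 18, 15 were kept, 2 higher in SkBr3/Lap and 11 in BT474/Lap (73.3% against 23.6% of all named genes), with a median of -4.65 against -0.92 in the parents, where 3 were higher in SkBr3 and 7 in BT474. SCGB2A2, mammaglobin, had 879, 3.07, 5918 and 9016 and SCGB1D2, its partner, had 105, 7.26, 4956 and 9483, at least 836-fold and 879.7-fold lower in SkBr3/Lap. PIP, prolactin-induced protein, had 1846, 34.5, 1060.0 and 2552, higher in SkBr3 than in BT474 and lower in SkBr3/Lap than in BT474/Lap, with a clone difference of -6.51. SPDEF, an ETS factor of luminal cells, had 15517, 386, 18690.3 and 11852 and a difference of -5.24, absent in the parents (-0.21). FOXA1, a pioneer factor of luminal cells, had 21062, 7249.9, 37263 and 32109 and -2.45. MUCL1, small breast epithelial mucin, had 658, 24.3, 105429 and 47785 and a difference of -11.24 against -7.27. The 2 genes higher in SkBr3/Lap were FKBP5, a chaperone with 205, 393, 8.30 and 14.4, and TFAP2B, an AP-2 factor with 1849, 99.1, 11.6 and 17.6, which were higher in SkBr3 too. The call of TFAP2B was lost after normexp and quantile normalization.

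Most genes of the list drawn up as luminal epithelial were close or higher in SkBr3/Lap, but the cadherin genes CDH1 and CDH3 were far lower. Of 20, 19 were kept, 7 higher in SkBr3/Lap (36.8% against 24.2% of all named genes) and 4 in BT474/Lap (21.1% against 23.6%), with a median of 0.89. The calls of CLDN3 and ST14, among the 7, were lost when scaled over the probes well above background and after quantile normalization, with or without normexp. The 4 were shared with the parents, led by CDH1 (at least 5273-fold) and CDH3, with 17.8, 24.4, 2288 and 4601. CDH3 is the gene of P-cadherin, which is not a marker of luminal cells although the list held it. MUC1, the cell surface mucin, had 2799.9, 11702, 1620.3 and 918 and a difference of 3.37 against 0.84, and CLDN7, a claudin of tight junctions, had 18758, 46887, 12302 and 8684 and 2.13 against 0.66. PRSS8, prostasin, had 3109, 5427, 2231 and 1844 and a difference of 1.25 absent in the parents. KRT8 and KRT18 were under 2-fold, with differences of 0.66 and 0.85. Other probes, well above background on all 4 arrays, had 1.29 for KRT8 and 1.48 and 0.48 for KRT18. Whether these keratins reached 2-fold thus depends on the probe.

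Basal and mesenchymal genes were mixed in direction. Of 24, 19 were kept, 12 higher in SkBr3/Lap and 5 in BT474/Lap, or 63.2% and 26.3% against 24.2% and 23.6% of all named genes. Of the 12, KRT5, KRT17, MSN and SPARC were kept through SkBr3/Lap only, and 2 of the 5 through BT474/Lap only, which leaves 8 and 3 of 13. The median over the 19 was 1.4998 against -0.13 in the parents, where 6 and 8 were higher. MSN, moesin, which ties actin to the membrane, had 3.59, 6778, 3.70 and 3.26 and was well above background in SkBr3/Lap only, at least 375-fold above BT474/Lap. SPARC, a matrix glycoprotein, had 9.95, 6865, 10.5 and 28.0 and a difference of 7.64. Neither parent was above background for these 2 genes. CD44, the hyaluronan receptor, had 124, 19894, 2027 and 2585 and ANXA1, annexin A1, had 326, 29315, 2759 and 8246, so that BT474 was above SkBr3 but SkBr3/Lap above BT474/Lap, with clone differences of 2.64 and 1.53. The basal keratin genes KRT5, KRT14 and KRT17 had 9.75, 426, 3.43 and 3.07, 45.2, 1431, 105 and 429 and 39.4, 3199, 10.5 and 91.0, highest in SkBr3/Lap. FOXC1, a factor of basal-like tumors, was higher in both clones than in their parents, with 153, 29809, 281 and 8544, and differed by 1.4998. In contrast VIM, vimentin, had 26.4, 166, 19393 and 9843 and TWIST1, a factor of mesenchymal transition, had 19.3, 39.8, 2303 and 16598, both far lower in SkBr3 and in its clone (-6.19 and -9.01). SNAI2, another such factor, had 4.68, 21.6, 12.1 and 366 and was higher in BT474/Lap, a difference of -4.39. ZEB1, ZEB2, LOX and TGFB2 were not kept.

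Integrins, laminins and matrix proteases were more often higher in SkBr3/Lap. Of 30, 24 were kept, 14 higher in SkBr3/Lap and 4 in BT474/Lap, or 58.3% and 16.7% against 24.2% and 23.6% of all named genes. Without ITGA1, ITGA5, ITGB8 and PLAT, kept through SkBr3/Lap only, 10 and 4 of 20 were higher. The median over the 24 was 1.66, and between the parents 11 and 7 with a median of 0.90. PLAUR, the urokinase receptor, had 247, 11384, 3.63 and 9.36, at least 630.0-fold higher in SkBr3/Lap, and ITGA1, an integrin that binds collagen, had 56.6, 1077, 4.62 and 4.11, at least 59.6-fold. TIMP2, an inhibitor of matrix proteases, had 27075, 101339, 566 and 2659.8 and a difference of 4.95. These differences were present in the parents. LAMC1, the γ1 chain of laminin, had 25.3, 11119.7, 935 and 1760.4, low in SkBr3 and high in its clone, with a clone difference of 2.36 and a parental one of -5.15. LAMA3, the α3 chain of laminin, was the counterpart in BT474/Lap with 188, 248, 64.9 and 5671 and a difference of -4.82. ITGA6, which binds laminin, had 3.58, 4479, 869.8 and 2986, so that a wide parental gap was nearly gone between the clones (0.28).

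The targets of the drug differed as well. Of 16 ERBB receptors, ligands and inhibitors, 12 were kept, 5 higher in SkBr3/Lap, of which EPGN and HBEGF were kept through that array only, and 6 in BT474/Lap, against 24.2% and 23.6% of all named genes. Between the parents these numbers were 3 and 4. EGFR had 2767, 12836, 217 and 124, a clone difference of 6.39 against a parental one of 3.73, as the gap widened on both sides. ERBB2 differed by -1.30 between the clones and -0.05 between the parents, and SkBr3/Lap was the lowest array. With median scaling that difference was under 2-fold. ERBB4 had 106, 2.69, 812 and 717, at least 66.5-fold lower in SkBr3/Lap, and ERBB3 had 4173, 7029.9, 3927 and 8667, a difference of -0.61. Among the ligands, HBEGF had 25.1, 431, 27.8 and 52.6 and a difference of 2.73, and BTC, betacellulin, had 130.0, 36.4, 119 and 173 and -2.55, both absent in the parents. Another probe of HBEGF had a parental difference of 1.44 and a clone difference of 5.30. AREG, amphiregulin, had 354, 148, 6802 and 2927 and -4.61, and TGFA had 3.36, 2.84, 141 and 207, both higher in BT474 and in its clone. ERRFI1, an inhibitor of these receptors that their signal induces, had 4120.4, 30253, 5181 and 6274 and a difference of 1.97 absent in the parents, while LRIG1, another inhibitor, had 3392, 2117, 10276 and 12545 and -2.87.

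The neighbors of ERBB2 in the 17q12 amplicon were in part lower in SkBr3/Lap. Of 14 genes 13 were kept, 1 higher in SkBr3/Lap and 8 in BT474/Lap (61.5% against 23.6% of all named genes), with a median of -1.21 (-0.80 with median scaling) against -0.30 in the parents, where 2 and 4 were higher. GRB7, an adaptor amplified with ERBB2, had 13288, 10799.9, 15500.4 and 19659.5 and a difference of -1.17, and TCAP, telethonin, had 3860.0, 4224, 5386 and 13462 and -1.98. Both were absent in the parents, and that of GRB7 was under 2-fold with median scaling. PNMT, an enzyme that makes adrenaline, had 368, 31.0, 4142 and 8220.3 and a difference of -8.35. PPP1R1B, a phosphatase inhibitor, had 189, 108, 30.8 and 272, opposite in clones and parents. CDK12, a kinase of RNA polymerase II, was the one higher in SkBr3/Lap, with 1830.3, 3400.0, 312 and 337, and it was so in SkBr3. MIEN1 and PSMD3 differed by 0.04 and -0.09, close to 0.

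Other receptor kinases and Src-family kinases were even, with 7 of 19 kept genes (of 28) higher in each clone. This is 36.8%, against 24.2% of all named genes higher in SkBr3/Lap and 23.6% in BT474/Lap. Without FGR, kept through SkBr3/Lap only, 6 and 7 of 18 were higher. The median over the 19 was 0.18, and -0.02 when scaled over the probes well above background. MET, the receptor of hepatocyte growth factor, had 2295, 24192, 2351 and 2956, a clone difference of 2.73 and a parental one of 0.02, with SkBr3/Lap alone high. Its 2 other probes had clone differences of 2.78 and 2.87 and parental ones of -0.58 and -0.68. FGFR2 had 3919, 11881, 146 and 827 and a difference of 3.54, and RET had 4.002, 3.12, 195 and 359, at least 33.3-fold higher in BT474/Lap. EPHA4 had 323, 547, 1159 and 10394 and a difference of -4.55. FGR, a Src-family kinase, had 28.4, 163, 19.7 and 39.6 and 1.74, and YES1, another, had 1702, 1831, 2258 and 3125 and -1.07, the latter lost with median scaling. Absent in the parents were those of MET, FGR and YES1, but another probe of YES1 had a parental difference of -1.53. FYN and LYN, also of this family, were higher in both clones than in their parents, with 106, 2496, 187 and 939 and 4.24, 629, 11.2 and 947, and the clones differed by 1.11, which was under 2-fold when scaled over the probes well above background, and -0.89.

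ABC transporters, which export drugs and lipids, held 3 differences higher in SkBr3/Lap and absent in the parents, a class with 6.51% of all named genes. Of 16, 12 were kept, 5 higher in each clone (41.7%, against 24.2% and 23.6% of all named genes), with a median of 0.25. Without ABCC4, kept through SkBr3/Lap only, 4 and 5 of 11 were higher. ABCG2, the breast cancer resistance protein, had 99.1, 69052, 99.5 and 9092 and a difference of 2.62, as it was far above the parent in both clones and more so in SkBr3/Lap. ABCB1, P-glycoprotein, had 3.96, 2038, 4.70 and 236 and 2.81, again above both parents, which were at background. ABCC4 had 14.3, 113, 13.3 and 3.33, at least 6.23-fold above BT474/Lap. Neither parent was well above background for ABCC4, so for it, as for ABCB1, the parental comparison is of background signals. ABCC11 had 773, 5.63, 4790.2 and 2776 and was at least 258-fold lower in SkBr3/Lap. ABCA3, a lipid transporter of the lung, had 3381, 1579.8, 2359 and 3121 and a difference of -1.29 absent in the parents, and lost with median scaling.

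Proliferation genes were higher in SkBr3/Lap by a moderate amount. All 26 were kept and well above background on the 4 arrays, 16 were at least 2-fold higher in SkBr3/Lap (61.5% against 24.2% of all named genes) and 1 in BT474/Lap (3.85% against 23.6%). The median difference was 1.29 against 0.64 in the parents, where 9 and 2 were higher. The reference genes had a median of 0.28, with 2 of 15 higher in SkBr3/Lap and 0 in BT474/Lap. CDC6, which licenses replication origins, had 16885, 24705, 1302 and 2282 and a difference of 3.13, and MKI67, the antigen Ki-67, had 495, 1589, 211 and 186 and 2.79. Both differences were present in the parents. CDC20, an activator of mitotic exit, had 3575, 18749, 5154 and 3418 and 2.15, and PLK1, a mitotic kinase, had 16738, 47835, 13837 and 11412 and 1.76. With CCNB1 (12525, 31158, 12281 and 8826, 1.52) and FOXM1 (3883, 8886, 2851 and 2803, 1.36), cyclin B1 and the factor of mitotic genes, these 4 differences were absent in the parents. CCNE2, a cyclin of S phase entry, was the one higher in BT474/Lap, with 60.5, 78.7, 273 and 381.

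For cholesterol and fatty acid synthesis, 19 of 20 genes were kept, 3 were higher in SkBr3/Lap (15.8% against 24.2% of all named genes) and 1 in BT474/Lap (5.26% against 23.6%). Their median was 0.26. ELOVL6, a fatty acid elongase, had 1216, 4053, 360.5 and 508 and a difference of 2.69, and SQLE, an enzyme of sterol synthesis, had 13906, 37825, 8834 and 9356 and 1.71. INSIG1, the sterol sensor, had 1751, 5163, 1340.2 and 2051 and 1.03, a call that was lost in 3 of the other scalings. For glycolysis and hypoxia, 19 of 20 were kept, 8 and 2 were higher (42.1% and 10.5%), and the median was 0.73. Without SLC2A3, kept through SkBr3/Lap only, 7 and 2 of 18 were higher. SLC2A3, a glucose transporter, had 61.8, 4258, 4.38 and 3.92, at least 236-fold higher in SkBr3/Lap. ALDOC, an aldolase, had 2086, 3281, 43.1 and 41.1 and a difference of 6.02. ADM, adrenomedullin, had 1323, 21522, 1558 and 2465 and 2.82, absent in the parents, as was BNIP3 with 12531, 33532, 9800.5 and 12651 and 1.103, a call lost in the same 3 scalings as that of INSIG1. Among NRF2 targets, which defend against oxidants, 17 of 19 were kept, 10 and 2 were higher (58.8% and 11.8%), and the median clone difference was 1.32. Without AKR1C1, kept through SkBr3/Lap only, 9 and 2 of 16 were higher. In the parents the median of the 17 was 1.70, with 11 and 4. GCLM, a subunit of glutathione synthesis, had 2409, 8054, 515 and 972 and 2.75, and ME1, malic enzyme, was below SkBr3 in SkBr3/Lap with 3961, 68.4, 1263 and 1233 and -4.48.

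Death receptors and BCL2 proteins were 21 of 24 kept, 5 higher in SkBr3/Lap (23.8% against 24.2% of all named genes) and 4 in BT474/Lap (19.0% against 23.6%), which is close to the share of all genes, with a median of -0.20 that was 0.21 with median scaling. BCL2, which blocks apoptosis, had 14.8, 3.47, 1121 and 4555, at least 423-fold higher in BT474/Lap, and it was above both SkBr3 arrays in BT474 as well. TNFSF10, the ligand TRAIL, had 44.8, 23.4, 289 and 4791 and a difference of -7.98 against -2.63. TNFRSF10B, its receptor DR5, had 1400.0, 5051, 3826 and 1457, a clone difference of 1.49 and a parental one of -1.39, so that the receptor was higher in SkBr3/Lap and the ligand in BT474/Lap. PMAIP1, the gene of NOXA, had 61.2, 1463, 1541 and 1254, and a parental gap of -4.60 came to -0.08 between the clones.

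**Figure D4:**
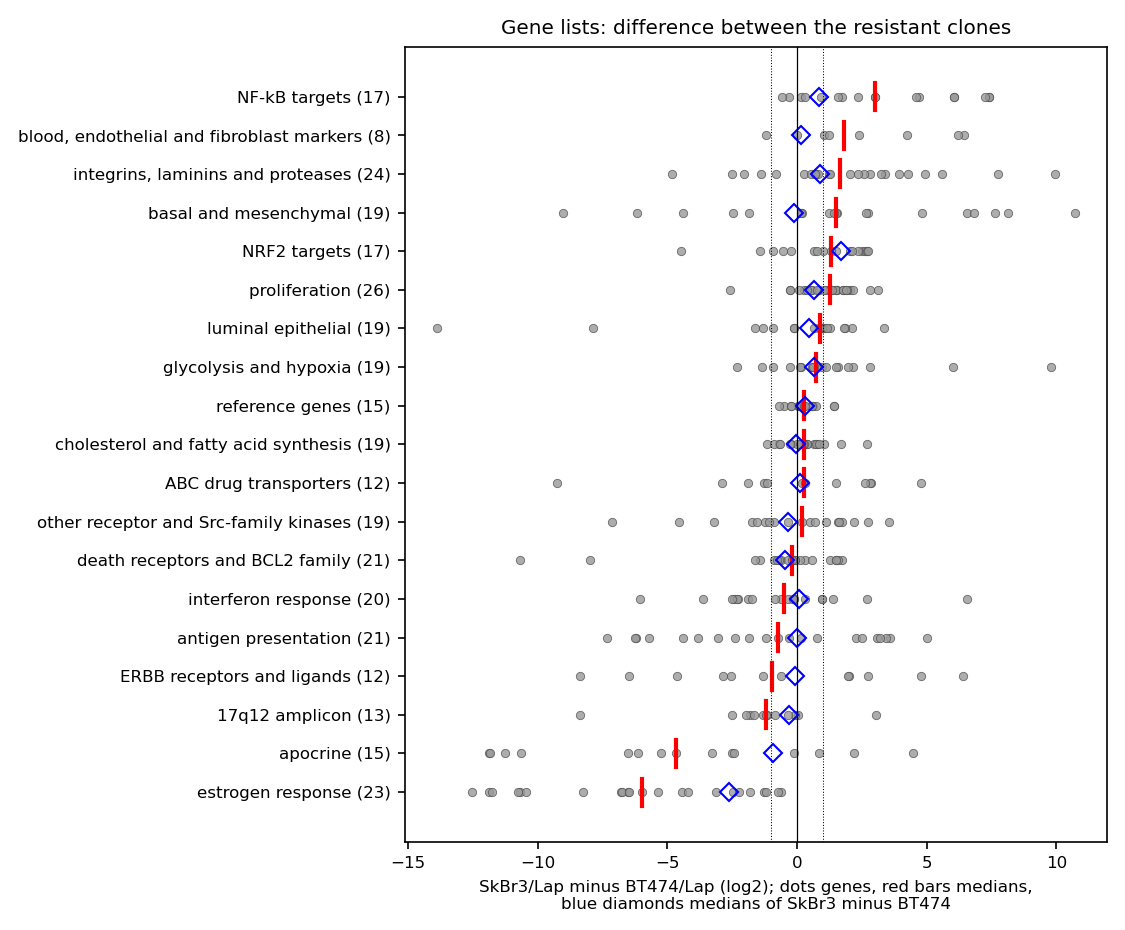
Log2 difference between SkBr3/Lap and BT474/Lap of the kept genes of 19 lists (1 dot per gene, number of kept genes in brackets), with the median of each list as a red bar and the median of SkBr3 minus BT474 as a blue diamond. Dotted lines mark 2-fold; the list medians run from -5.98 for estrogen response to 2.99 for NF-κB targets, and both lie farther from 0 than their parental medians.

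Outside the lists and among genes well above background on all 4 arrays, the 4 largest differences shared with the parents were taken in each direction. MAGEA12 and MAGEA6, cancer-testis antigens, had 20221, 64371, 17.6 and 27.5 and 10573, 36338, 16.2 and 24.0. They are near-identical copies, so their split is uncertain. S100A8, a calcium-binding protein of inflamed epithelium, had 17242, 81554, 82.7 and 103, and ACTG2, an actin of smooth muscle, had 701, 100288, 33.8 and 104, a difference of 9.61 that was 4.43 in the parents. On the other side GPX1, a glutathione peroxidase, had 70.3, 146, 93348 and 70202. ZDHHC4, a palmitoyltransferase, had 1268, 21.8, 29236 and 30104, ABR, a regulator of small GTPases, had 1689.6, 47.6, 13047 and 17894, and NAAA, an amidase of lysosomes, had 3082, 45.5, 10765 and 15863. In these last 3 genes SkBr3/Lap was far below SkBr3, and the difference grew from -4.47, -2.89 and -1.75 to -10.74, -8.86 and -8.75.

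In 286 probes (1.1%) SkBr3/Lap was higher although BT474 had been, and in 367 (1.42%) the reverse held. The 4 largest in each direction are given by the same limits. GDF15, a cytokine of cell stress, had 2378, 84968, 24127 and 556, so that its clone difference was 6.95 and its parental one -3.29. LASP1, an actin-binding protein encoded near ERBB2, had 4146, 25418, 104958 and 1039, with BT474 the highest array and BT474/Lap the lowest. KLHDC7B had 39.2, 6741, 1042 and 86.8 and PLEKHO1 had 105, 2902, 982 and 325, which crossed in the same direction. Crossing the other way, PGM5, a protein of adhesion sites, had 1918, 30.7, 42.2 and 2249.9, and KRT4, a keratin of squamous epithelium, had 53204, 154, 519 and 1792. NRP1, a coreceptor of semaphorins and VEGF, had 3718, 116, 337 and 1033 and KIF5C, a kinesin, had 1200.2, 63.9, 124 and 722. In these 4 genes SkBr3 was the highest array and SkBr3/Lap the lowest. The crossing of NRP1 depends on the probe, as its other probes had parental differences of 0.56 and -0.05.

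Parental differences that were gone between the clones were 1029 probes higher in SkBr3 (3.97%) and 770 higher in BT474 (2.97%), of which the 4 largest each are given by the same limits. MAL, a protein of apical transport, had 2594, 229, 25.4 and 198 and ALDH1A3, which makes retinoic acid, had 6165, 1389.5, 97.7 and 1293. Both were below the parent in SkBr3/Lap and above it in BT474/Lap, and the clones differed by -0.09 and -0.20. ZG16 had 1663, 1126, 65.5 and 769, and LYZL1 had 1043, 81.8, 36.6 and 50.5. Of those higher in BT474, PDGFA, a growth factor, had 26.5, 2349, 869 and 1371, DPYSL2, a protein of axon growth, had 66.8, 5725, 2192 and 5313, and LYSMD2 had 40.9, 2941, 1802 and 2079, and in all 3 SkBr3/Lap was near the level of BT474/Lap and far above SkBr3. LARP6, an RNA-binding protein of collagen messages, had 141, 1445, 5581 and 1641, above its parent in SkBr3/Lap and below it in BT474/Lap.

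Genes next to each other on the chromosome sometimes moved together. Among 11827 windows of 15 neighboring measured genes (RefSeq order, chosen after the values were seen), the clone median minus the parental median of a window lay between -1.12 and 1.09 in the middle 95% of windows. The largest positive window held genes of the skin barrier from LCE1D to S100A7, with a clone median of 3.39 against 0.34. SPRR3, of the cornified envelope, had 323, 46336, 94.7 and 921, and S100A7, psoriasin, had 145, 9428, 17.6 and 48.5. The SPRR and S100 genes are related, and their probes may share RNA. Apart from windows that overlap it, the next ran from DGCR6L to SDF2L1, with a clone median of 2.29 against -0.30, and 12 of its 15 genes were higher in SkBr3/Lap and 1 in BT474/Lap. These genes are of unrelated function. CRKL, an adaptor, had 308, 3173, 392 and 526, LZTR1, an adaptor of a ubiquitin ligase, had 583, 3336, 801 and 962, and UBE2L3, a ubiquitin-conjugating enzyme, had 6286, 36631, 4220.4 and 5881. In all 3, SkBr3/Lap was the highest array and the other 3 were close.

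In the other direction, a window with 6 PSG genes was at -1.97 between the clones and 1.21 between the parents. PSG8, a pregnancy glycoprotein, had 121, 125, 27.7 and 906, but the PSG copies are near-identical and their values are uncertain. A window from PGK1 to PCDH19 was at -3.04 against 0.04, with 8 genes higher in BT474/Lap and 2 in SkBr3/Lap. SH3BGRL had 375, 3.51, 2391 and 3488 and DIAPH2, a formin that nucleates actin, had 423, 27.8, 371 and 1102, lowest in SkBr3/Lap. The kallikrein proteases from KLK5 to KLK14 lay in a window at -3.77 against -0.76. KLK8 had 4.19, 25.9, 152 and 29013 and KLK11 had 3.91, 3.06, 2319 and 59827, far higher in BT474/Lap, and SIGLEC5, at the end of the window, had 11.9, 4045, 12.6 and 123 and was higher in SkBr3/Lap. Windows overlap in such clusters, and no test was made of them.

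**Figure D5:**
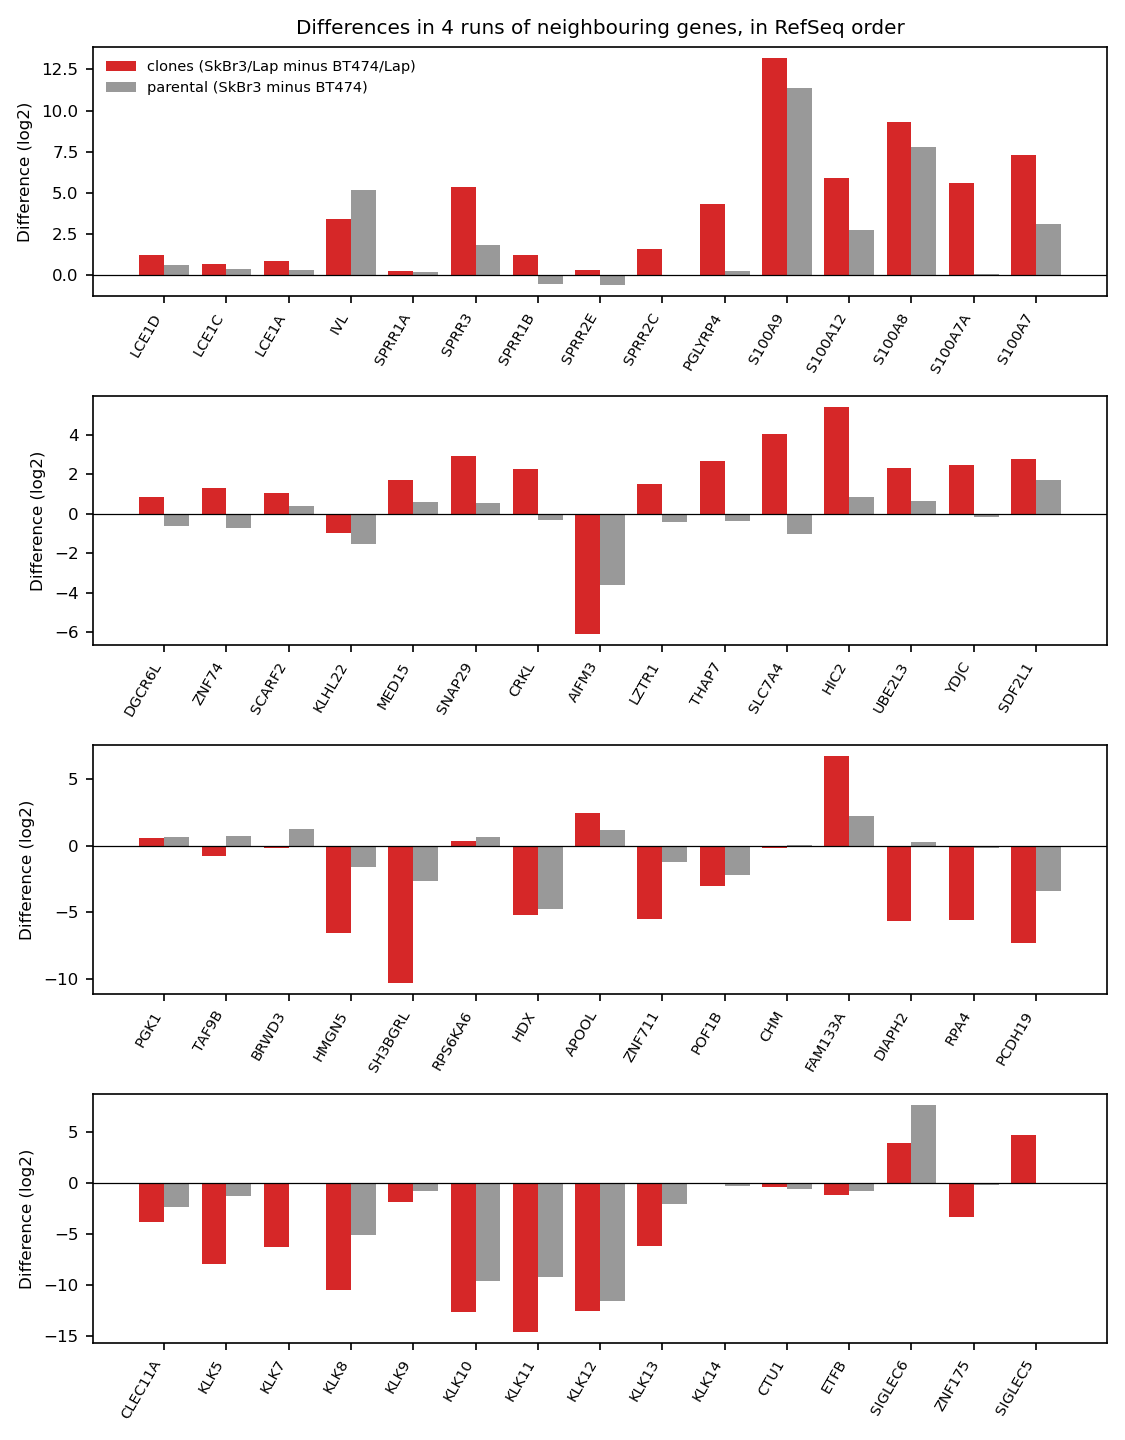
Log2 differences of the 15 genes in each of 4 windows of neighboring genes, drawn in RefSeq order, between the clones (red, SkBr3/Lap minus BT474/Lap) and between the parents (grey, SkBr3 minus BT474). From top to bottom the clone medians are 3.39, 2.29, -3.04 and -3.77 and the parental medians 0.34, -0.30, 0.04 and -0.76; bars of signals below background carry no exact height.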

How the data were processed

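RNA of 4 cultures was hybridized to 1-color (Cy3) Agilent 4×44K arrays, 1 per group. The deposited intensities are the processed signals of Feature Extraction 10.1.1.1 as the file headers name it, background-subtracted, whereas the study's methods name an earlier version and LOWESS normalization. The authors also deposited a log2 table, whose clone differences, after a constant of -0.303 was removed, departed from those of the scanner values by at most 0.544, and which was used as an alternative. Control spots were left out, spots of a probe averaged, log2 taken and the 75th percentile of each array subtracted (Python 3.11.15, numpy 2.4.6, pandas 2.3.3). Probes with a signal of 100 on at least 1 array were kept. A gene was represented by 1 probe, that with the highest mean over the 4 arrays. Calls are 2-fold, and absent means under 1.5-fold. Named genes are, outside the 19 lists, those with the largest differences of each class among probes well above background, the 6 largest seen on 1 clone array only, and, in each list, the members with the largest clone difference and those absent in the parents; other list members were named after their values were seen. Members and lists were chosen with earlier results of these data known, and windows and printed promoters after the values were seen. Alternatives used limma 3.58.1 in R 4.3.3 for normexp and quantile normalization. The counting of calls was tested on simulated data. With 1 array per group, the number of arrays limits the precision, and no test was made. Most list members are given in counts only, and some are not reported here.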

Additional observations from a re-analysis of the deposited data

Results flagged for a closer look

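In 29 of the genes described, all well above background on the 4 arrays, the 2 clones had moved at least 2-fold away from their parents in opposite directions. The difference between the moves was not tested, since there is 1 array per group. It is given on the log2 scale as SkBr3/Lap minus SkBr3, less BT474/Lap minus BT474.

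In 11 genes SkBr3/Lap was above its parent and BT474/Lap below its own. These were CDC20 (2.62), EGFR (2.66), GBP1 (5.47), GDF15 (10.24), KLHDC7B (10.65), LARP6 (4.76), LASP1 (8.92), MUC1 (2.53), NLRC5 (3.38), PLEKHO1 (6.03) and VIM (3.28). GDF15 and KLHDC7B had the widest gaps among them. Another probe of GBP1, not well above background on all 4 arrays, had signals of 95.1, 1965, 6.87 and 32.4, with BT474/Lap above BT474, so the opposite moves of GBP1 depend on the probe.

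In 18 genes SkBr3/Lap was below its parent and BT474/Lap above its own. These were ACSM1 (-3.73), ALDH1A3 (-6.24), CA12 (-11.09), HLA-DMA (-6.02), KIF5C (-7.13), KRT4 (-10.58), MAL (-6.82), NAT1 (-3.11), NDRG1 (-4.30), NRP1 (-6.97), PGM5 (-12.06), PLA2G2A (-6.13), PPP1R1B (-4.32), SAMD9 (-3.98), SELENOP (-6.98), TNFAIP2 (-2.42), TNFSF10 (-5.34) and ZG16 (-4.47). PGM5, CA12 and KRT4 had the widest gaps in this direction.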

How the results depend on the processing

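No paired analysis was possible because each group has 1 array, and no replicate could be left out. None of the 265 called differences of the genes described changed direction with the other scalings, with quantile normalization alone or after normexp, in the deposited table, with 16 added to the signal or without outlier spots, and 0 to 20 of them came under 2-fold in each. Of 106 settings of the counts, 82 stayed within 1.5 times. The other 24 test more or fewer probes or move the limit, apart from normexp with quantile normalization, where 283 differences were opposite to the parents. Why these counts moved was not tested. With no filter on low signals, 10267 probes were higher in BT474/Lap, 5750 differences were absent in the parents, 1076 were opposite and 2949 parental differences were gone between the clones. Over the 23183 probes well above background on all 4 arrays, 431 were opposite, against 653 of the 25927 kept probes. At 4-fold, 2474 probes were higher in SkBr3/Lap and 3521 in BT474/Lap, 1996 in SkBr3 and 2433 in BT474, with 963 absent, 2796 shared, 175 opposite and 377 gone. Taking absent as under 2-fold gave 5509 absent and 3066 gone. With 1 probe per named gene, these numbers were 2947, 2866, 2323, 2394, 1444, 3094, 318 and 758. Of 152 settings of the list medians, 28 moved by over 0.379, which is how far probes of the same gene typically ranged, and so did 931 of 5388 settings of single genes. The medians of the death receptor and BCL2 list (0.21 with median scaling) and of the other kinases (-0.02 with the percentile over probes well above background) changed sign. The lowest signal well above background was 13.3 to 16.01 per array, and folds against signals not above it are limits.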
